A study of Mus musculus with 11 samples.

Results

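Microglia are the resident macrophages of the brain. They arise from progenitors of the yolk sac and enter the neural tube early in embryonic life, before the cortical layers form. Their survival depends on the receptor CSF1R, their identity on the transcription factors PU.1 and IRF8, and much of their sensing of nucleotides, neurons and dying cells on surface receptors such as P2RY12, CX3CR1 and TREM2. The genes described here are 9 of 24138 loci in the deposited expression table: Csf1r, Trem2, Tyrobp, Spi1, Irf8, Aif1, P2ry12, Cx3cr1 and Tmem119. They were chosen by symbol as genes of microglial identity and of the resting, homeostatic state, and each symbol was found at a single locus that names no other gene.

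RNA came from the cortex of mouse embryos at E14.5, a stage of embryonic neurogenesis. The 2 libraries of the Chd8 conditional knockout, or cKO, carried the genotype Chd8 c/c with Emx1-cre, where c is the conditional allele of Chd8, a chromatin remodelling enzyme gene linked to autism. The 3 controls had no Cre in their labels: control replicate 1 was Chd8 c/+, and control replicates 2 and 3 were Chd8 c/c. Emx1-cre acts in progenitors of the dorsal telencephalon and their descendants, a lineage that does not give rise to microglia. Whether a library came from a single embryo or from a pool is not stated, so the spread between libraries may be in part technical, and 6 ATAC-seq samples were not analysed here. A protocol field of the RNA samples names Eed where titles and genotypes name Chd8.

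Chd8 RNA was 31.5, 30.02 and 31.8 FPKM (fragments scaled to transcript length and library size) in controls 1 to 3, and 19.3 and 15.1 FPKM in cKO 1 and 2, so both libraries labelled cKO were below every control. Markers of the dorsal telencephalon, among them Emx1 and Tbr1, were present in all libraries, with a summed level of 11 genes of 673 to 1384 FPKM in the controls and 633 to 838 FPKM in the cKO. Both cKO libraries were below every control at 5 of the 11 and above at 2, beside 15.6% and 13.4% of loci averaging at least 1 FPKM. The authors' deposited table marked 5 of the 11 as significant and lower, beside 3% of its 13511 evaluated loci. Markers of the ventral telencephalon summed to between 280.5 and 469.5 FPKM in the controls and between 560.3 and 639 FPKM in the cKO. Both cKO libraries were above every control at 7 of these 12 markers and below at none, beside the same 13.4% and 15.6% of loci. The authors' deposited table marked 5 of the 12 as significant and higher, beside 1.21% of its evaluated loci. The summed FPKM of a whole library was between 418191 and 484296, and the number of reads behind it is unknown.

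The RefSeq promoter table (GRCm38.p6) held entries for 5 of the 9 genes, and the 250 bases before the start site are printed for 3 of them because these 3 differed in how their RNA behaved across the libraries: Trem2 was higher in both cKO libraries by the largest ratio among the 5, P2ry12 was higher by less, and Cx3cr1 was not separated by genotype. Capitals mark matches to GAGGAA or AGGAAGT, letters of the site bound by PU.1 and other ETS factors, on either strand.
Trem2 (chr17:48346151-48346400, plus strand): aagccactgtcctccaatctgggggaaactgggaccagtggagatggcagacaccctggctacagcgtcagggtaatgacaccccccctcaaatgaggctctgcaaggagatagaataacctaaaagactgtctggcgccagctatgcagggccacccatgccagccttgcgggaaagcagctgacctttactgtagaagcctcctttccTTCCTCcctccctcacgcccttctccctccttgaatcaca
P2ry12 (chr3:59262986-59263235, minus strand): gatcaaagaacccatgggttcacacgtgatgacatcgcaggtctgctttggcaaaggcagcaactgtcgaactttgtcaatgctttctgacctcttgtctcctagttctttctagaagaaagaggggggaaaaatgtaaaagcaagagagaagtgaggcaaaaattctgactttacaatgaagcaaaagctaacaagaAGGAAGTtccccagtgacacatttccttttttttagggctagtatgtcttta
Cx3cr1 (chr9:120068297-120068546, minus strand): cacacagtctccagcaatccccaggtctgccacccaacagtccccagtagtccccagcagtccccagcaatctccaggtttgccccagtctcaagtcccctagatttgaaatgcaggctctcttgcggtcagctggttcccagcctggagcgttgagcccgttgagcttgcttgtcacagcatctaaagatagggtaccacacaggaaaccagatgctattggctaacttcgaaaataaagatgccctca
The Trem2 window held GAGGAA on the opposite strand, at bases -40 to -35 from the start site. The P2ry12 window held AGGAAGT at bases -52 to -46. Neither string was in the Cx3cr1 window. Of the other 2 genes with an entry, Aif1 had GAGGAA on the opposite strand, at bases -7 to -2, and Irf8, whose RNA was above every control in both cKO libraries, had neither string in either of its windows. Over all 32851 promoter windows of this length, 23.3% held GAGGAA and 7.69% held AGGAAGT on either strand, so these strings are common.

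As a group, the 9 genes were mostly higher in the cKO, and the test over all loci called none of them. Both cKO libraries were above every control at 7 of the 9 genes, below every control at 1 (Tmem119), and overlapped the controls at 1 (Cx3cr1). Among the 18480 loci with any value above 0, both cKO libraries were above every control at 12.9% and below at 13%. Among the 5781 loci whose mean level lay within the range of the 9 genes, these shares were 13% and 14.7%. The summed level of the 9 genes was 16.2, 22.3 and 20.2 FPKM in controls 1 to 3 and 44.2 and 38.1 FPKM in cKO 1 and 2. Tyrobp supplied much of this sum. Without it the sums were 12.8, 14.8 and 12.6 FPKM in the controls and 26.8 and 19.3 FPKM in the cKO, and the groups again did not overlap. In RNA of whole tissue, a difference in the number of microglia and a difference in RNA per microglial cell cannot be told apart.

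**Figure D1:**
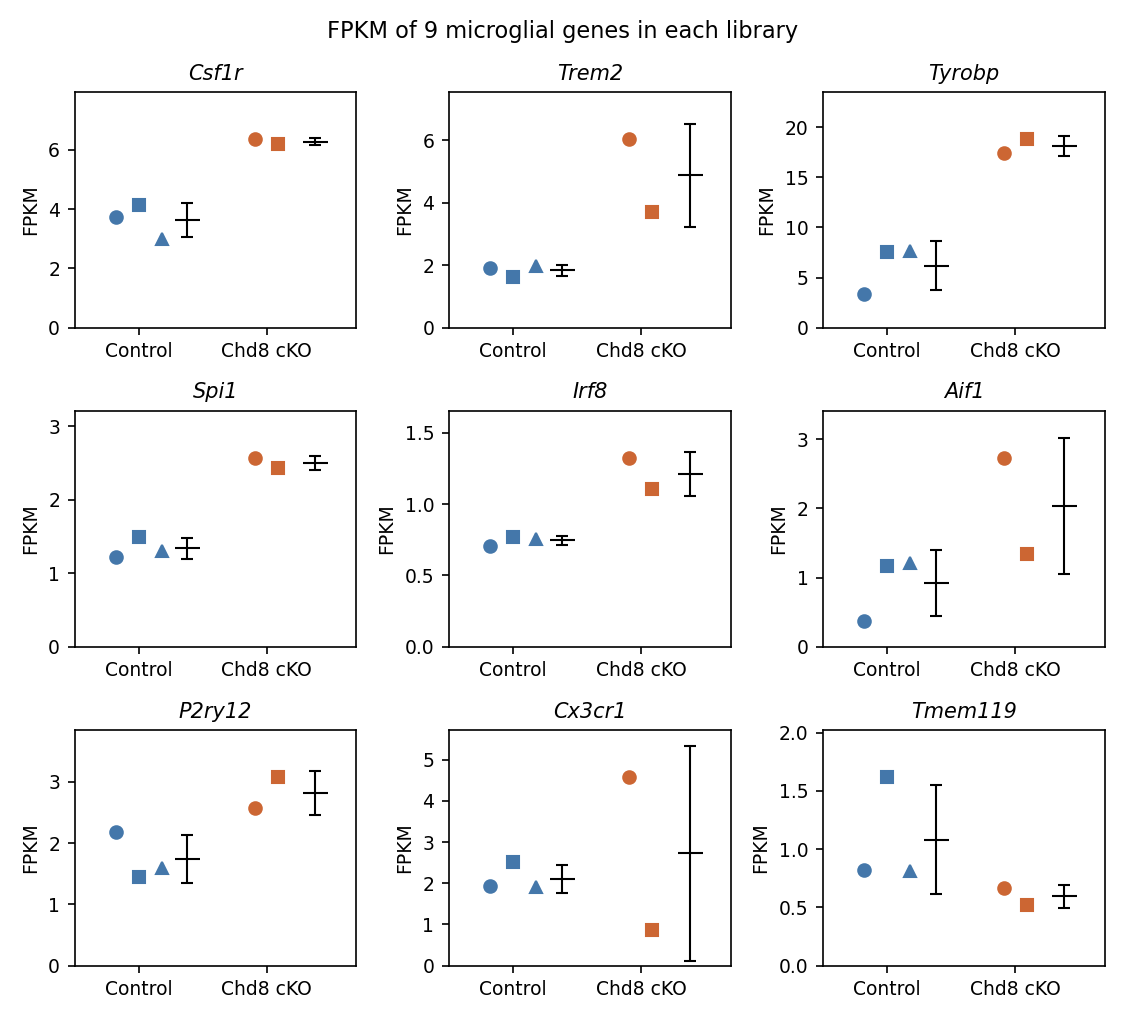
FPKM of each of the 9 genes on the vertical axes (each panel has its own scale from 0), with control libraries in blue and cKO libraries in orange; circles, squares and triangles are replicates 1, 2 and 3, and the black marks give mean and SD (n = 3 and n = 2). Both orange points lie above all blue points for 7 genes, below them for Tmem119, and on either side of them for Cx3cr1.

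For the test, FPKM was taken as log2(FPKM + 1), a scale that compresses differences at low levels, and loci averaging under 1 FPKM were set aside. This left 12672 loci and 7 of the 9 genes: Irf8 and Tmem119 were under the minimum, and Aif1, with a control mean below 1 FPKM, was above it through the cKO libraries. Of the 7 genes, 6 had both cKO libraries above every control and none had both below. Over the tested loci these shares were 13.4% and 15.6%. Since Aif1 is one of the 6, nothing is read from this count beside those shares. At an adjusted p under 0.05 in limma, none of the 7 was called, beside 0.0473% of all tested loci (6 loci, all small RNA genes). Chd8 itself, lower in both libraries labelled cKO, went uncalled in this fit too (log2 change -0.83, adjusted p = 0.575 in limma). The absence of a call, here and for the gene lists below, therefore cannot be read as the absence of a difference. At an unadjusted p under 0.05 in limma there were 4 of the 7 genes and 944 of the 12672 loci. Without the minimum there were 5 of the 9 genes and 1385 of 18480 loci, and again none of the 9 was called, beside 0.0216% of loci. In that fit the median log2 change was 0.58 over all 9 genes, beside -0.01 over all loci above 0. In the authors' deposited table, Tyrobp was marked as significant and higher, and the other 8 genes were not marked. That table marked 1.21% of its 13511 evaluated loci as higher and 3% as lower in the cKO.

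**Figure D2:**
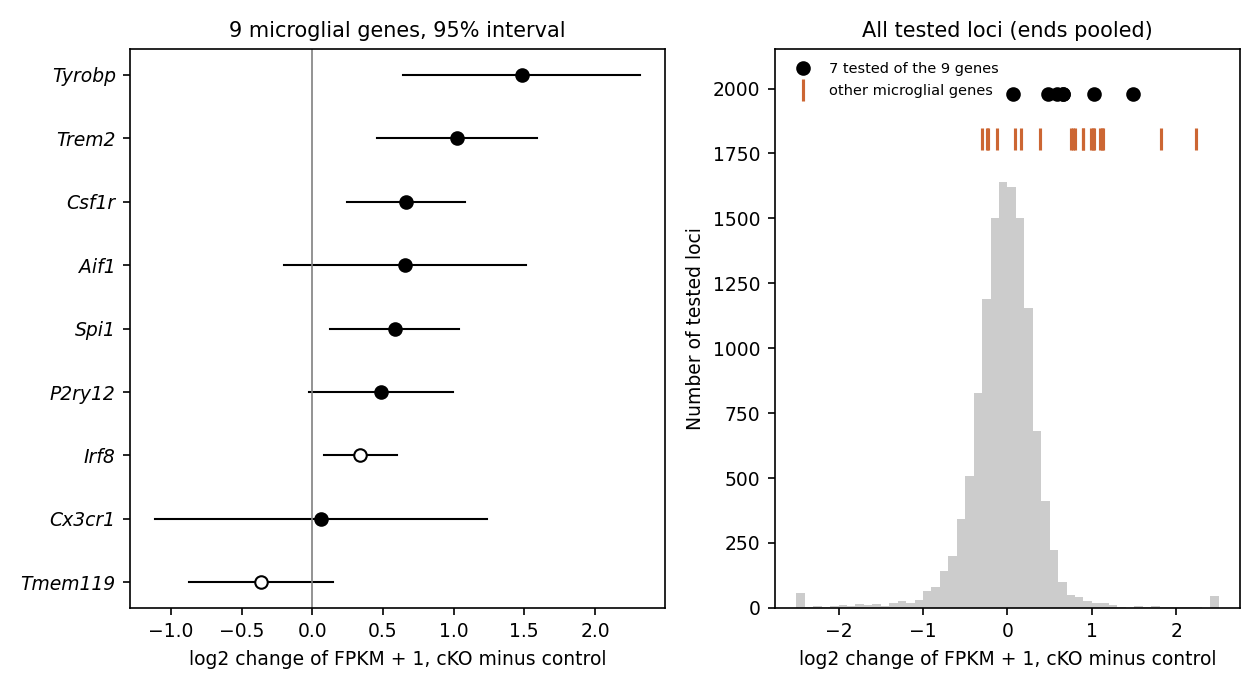
Left, log2 change (cKO minus control, FPKM + 1) of the 9 genes with 95% intervals from limma; filled points are the 7 tested genes and open points, Irf8 and Tmem119, come from the fit without a minimum level. Right, the same quantity for all 12672 tested loci as a histogram with values beyond the axis pooled in the end bars, with the 7 tested genes as dots and 20 other microglial genes as ticks: the dots run from 0.06 to 1.48, and the median of all loci is -0.02.

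Csf1r encodes the receptor for colony stimulating factor 1 and interleukin 34, on which microglia depend for survival. It was 3.73, 4.14 and 3.01 FPKM in controls 1 to 3, and 6.37 and 6.20 FPKM in cKO 1 and 2. The cKO libraries lay within 3% of each other and above every control. The means were 6.28 ± 0.120 FPKM (SD, n = 2) and 3.63 ± 0.573 FPKM (SD, n = 3), a ratio of 1.73, with a log2 change of 0.66 (SE 0.17, 95% interval 0.25 to 1.08) and an adjusted p of 0.575 in limma. A two-sided exact permutation test on the 5 values gave p = 0.1, the lowest p this design can reach. In RefSeq, Mir6983 and Gm52352 overlap the Csf1r span. Mir6983 was listed at 0 in every library, and the part of Gm52352 in these values was not tested.

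TREM2 is a lipid-sensing receptor of microglia, and TYROBP, also called DAP12, is the adaptor protein that signals for it and for several other myeloid receptors. Both genes had larger ratios between the groups than Csf1r. Trem2 (chromosome 17, 48346401 to 48352276 in GRCm38.p6) was 1.90, 1.63 and 1.97 FPKM in controls 1 to 3, and 6.04 and 3.71 FPKM in cKO 1 and 2. The controls were close together, while cKO 1 was 1.63 times cKO 2, and both cKO libraries were above every control. The log2 change of Trem2 was 1.03 (SE 0.23, 95% interval 0.46 to 1.59), with an adjusted p of 0.575 in limma and p = 0.1 in the exact permutation test. Tyrobp (chromosome 7, 30413782 to 30417582) had the highest level of the 9 genes in both groups. Its values were 3.34, 7.56 and 7.62 FPKM in controls 1 to 3, and 17.4 and 18.8 FPKM in cKO 1 and 2, so control 1 was low and the other 2 controls were alike. The means were 18.1 ± 1.01 FPKM (SD, n = 2) and 6.17 ± 2.46 FPKM (SD, n = 3), a ratio of 2.93. The log2 change was 1.48 (SE 0.34, 95% interval 0.64 to 2.32), with an adjusted p of 0.575 in limma. The authors' deposited table gave Tyrobp a log2 fold change of 1.55 and a q-value of 0.0380, and Trem2 a log2 fold change of 1.41 and a q-value of 0.0912.

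Spi1, which encodes PU.1, and Irf8 encode transcription factors that act together in specifying macrophages and microglia. Spi1 (chromosome 2, 91082374 to 91115759) was 1.22, 1.49 and 1.31 FPKM in controls 1 to 3, and 2.56 and 2.43 FPKM in cKO 1 and 2. The libraries of each group were close together and the groups did not overlap. The ratio of means was 1.86, and the log2 change was 0.58 (SE 0.18, 95% interval 0.13 to 1.03; adjusted p = 0.575 in limma). Irf8 (chromosome 8, 120736358 to 120756694) was 0.709, 0.772 and 0.758 FPKM in the controls, the narrowest relative spread of the 9 genes there, and 1.32 and 1.10 FPKM in cKO 1 and 2. Both cKO libraries were above every control, with a ratio of means of 1.63. In the fit without a minimum level the log2 change of Irf8 was 0.34 (SE 0.10, 95% interval 0.08 to 0.60; adjusted p = 0.641 in limma). Within each library Irf8 stood at 0.583, 0.517 and 0.580 times the level of Spi1 in controls 1 to 3. In cKO 1 and 2 it stood at 0.516 and 0.455 times that level. Both cKO ratios were below every control, cKO 1 by a very small margin, and the exact permutation test gave p = 0.2.

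Aif1 encodes the calcium-binding protein IBA1, the usual antibody marker of microglia. Aif1 (chromosome 17, 35170986 to 35176083) was 0.372, 1.17 and 1.22 FPKM in controls 1 to 3, and 2.73 and 1.34 FPKM in cKO 1 and 2. The gap between the groups was small: cKO 2 was just above control 3, and cKO 1 was 2.04 times cKO 2. Control 1 was the lowest library for Aif1, as it was for Tyrobp. The log2 change of Aif1 was 0.65 (SE 0.34, 95% interval -0.20 to 1.51; adjusted p = 0.575 in limma). Leaving out cKO replicate 1 gave 0.32, leaving out cKO replicate 2 gave 0.99, and leaving out control replicate 1 gave 0.43.

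P2RY12 is the receptor for ADP that directs microglial processes, CX3CR1 the receptor for the neuronal chemokine fractalkine, and TMEM119 a membrane protein that marks mature microglia. These 3 genes of the homeostatic state behaved in 3 different ways. P2ry12 (chromosome 3, 59216271 to 59262985) was 2.18, 1.45 and 1.59 FPKM in controls 1 to 3, and 2.56 and 3.08 FPKM in cKO 1 and 2. Both cKO libraries were above every control, with a ratio of means of 1.62. The log2 change was 0.49 (SE 0.20, 95% interval -0.03 to 1.00; adjusted p = 0.575 in limma), and the exact permutation test gave p = 0.2. P2ry12 lies inside the span of Med12l, which was 3.84, 1.77 and 2.69 FPKM in controls 1 to 3 and 2.73 and 3.51 FPKM in cKO 1 and 2. Control 1 had the highest value among the controls for both genes, and a part of Med12l in the P2ry12 values was not tested.

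Cx3cr1 (chromosome 9, 120048683 to 120068296) was 1.92, 2.51 and 1.90 FPKM in controls 1 to 3, and 4.58 and 0.875 FPKM in cKO 1 and 2. The highest and the lowest of the 5 values were both from the cKO, a 5.23-fold difference within the group. The log2 change was 0.06 (SE 0.47), with a 95% interval of -1.12 to 1.24 that covers large differences in either direction. Leaving out cKO replicate 1 gave -0.72, and leaving out cKO replicate 2 gave 0.85. In cKO 2, where Cx3cr1 was lowest, Tyrobp and P2ry12 were at their highest. In RefSeq, Gm33858 overlaps the Cx3cr1 span, and its part in these values was not tested.

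Tmem119 (chromosome 5, 113793729 to 113800396) was 0.817, 1.62 and 0.811 FPKM in controls 1 to 3, and 0.665 and 0.523 FPKM in cKO 1 and 2. It was the single gene of the 9 with both cKO libraries below every control, and control 2 was the highest library. The log2 change without a minimum level was -0.36 (SE 0.20, 95% interval -0.87 to 0.14; adjusted p = 0.651 in limma), and the exact permutation test gave p = 0.3. Control 2 was also the library with the most RNA of meningeal fibroblasts. The 9 meningeal markers summed to 28.9 FPKM there, against 5.55 and 6.82 FPKM in controls 1 and 3 and 9.81 and 6.60 FPKM in cKO 1 and 2. Tmem119 is known in cells of the osteoblast lineage as well as in microglia, and the part of meningeal tissue in its values was not tested.

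FPKM is per length, so levels can be ordered between genes. In the controls the order by mean was Tyrobp, Csf1r, Cx3cr1, Trem2, P2ry12, Spi1, Tmem119, Aif1 and Irf8. Among neighbours in that order, Csf1r and Cx3cr1 alone did not overlap in their library values. In the cKO the order was Tyrobp, Csf1r, Trem2, P2ry12, Cx3cr1, Spi1, Aif1, Irf8 and Tmem119. Trem2 thus had rank 3 in the cKO and rank 4 in the controls, and Tmem119 had rank 9 in the cKO and rank 7 in the controls. With 2 cKO libraries a lack of overlap between neighbours is a weak criterion.

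Set against Csf1r within each library, 6 of the 8 other genes had ratios that overlapped between the groups. Spi1 was 0.326, 0.361 and 0.434 times Csf1r in controls 1 to 3, and 0.403 and 0.392 times Csf1r in cKO 1 and 2. Ratios to Csf1r also overlapped for Irf8, Aif1, P2ry12, Trem2 and Cx3cr1. Tyrobp was 0.895, 1.83 and 2.53 times Csf1r in the controls and 2.73 and 3.04 times Csf1r in the cKO, so the cKO was above every control by a small margin over control 3. Tmem119 was 0.219, 0.391 and 0.270 times Csf1r in the controls and 0.104 and 0.0844 times Csf1r in the cKO, all cKO ratios being below every control. The exact permutation test on the ratios gave p = 0.2 for Tyrobp and p = 0.1 for Tmem119. How often ratios of other loci separate in this way was not computed, so nothing is read from the count. A ratio also does not say which gene of a pair differed.

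**Figure D3:**
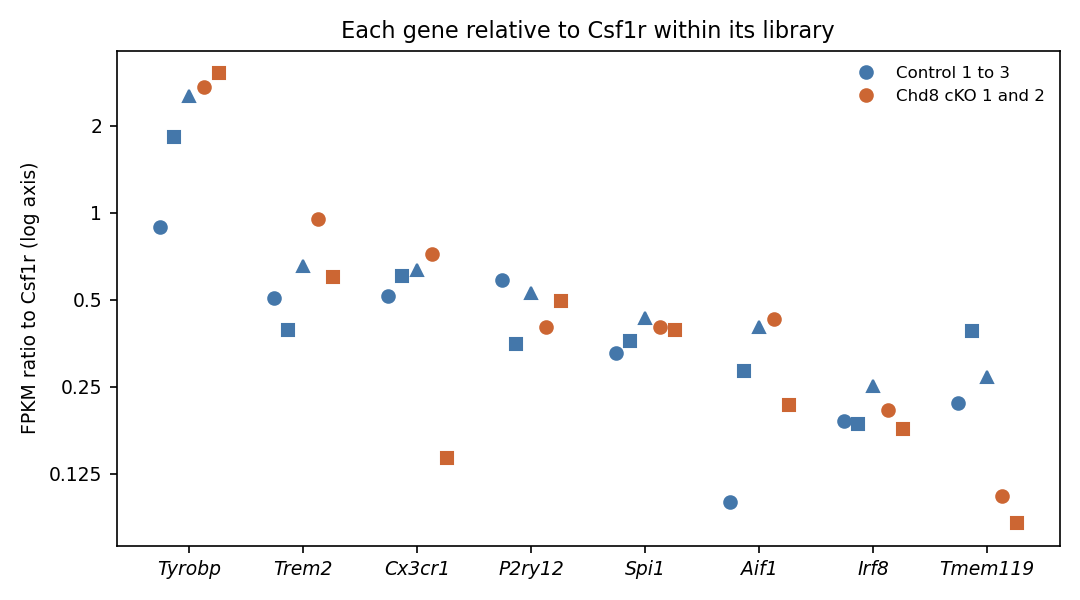
FPKM of 8 genes divided by the FPKM of Csf1r in the same library, on a log axis, with controls in blue and cKO in orange; circles, squares and triangles are replicates 1, 2 and 3. The Tmem119 ratios of the cKO (0.104 and 0.0844) lie below all controls, those of Tyrobp (2.73 and 3.04) above all controls, and the other 6 genes overlap.

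Genes that work with these receptors and factors were read from lists written from general knowledge. Of 10 genes of CSF1 receptor signalling, 8 were tested and none was called by limma in either direction. For 1 gene (Inpp5d) both cKO libraries were above every control and for 1 (Dok2) both were below, beside 12.9% and 13% of loci above 0, and the median log2 change over all 10 without a minimum level was -0.09. The ligand gene Csf1 was 2.10 ± 0.413 FPKM (SD, n = 2) in the cKO and 2.78 ± 0.666 FPKM (SD, n = 3) in the controls, and the ligand gene Il34 was under 1 FPKM in every library. Inpp5d, which encodes the phosphatase SHIP1 of hematopoietic cells, was 1.33 ± 0.133 FPKM and 0.824 ± 0.0809 FPKM, with no overlap (log2 change 0.35, SE 0.21), and was above the minimum level through the cKO libraries. Dok2, an adaptor protein gene of hematopoietic cells, was 0.581, 1.00 and 0.868 FPKM in the controls and 0.349 and 0.464 FPKM in the cKO, both below every control.

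Of 15 genes that act with TREM2 and TYROBP, 5 were tested and none was called by limma. At 6 of all 15 both cKO libraries were above every control, and at none were they below, beside 12.9% and 13% of loci above 0. Apoe encodes apolipoprotein E, a lipid carrier that binds TREM2. It was 35.7, 44.4 and 35.7 FPKM in controls 1 to 3 and 80.9 and 69.98 FPKM in cKO 1 and 2, with no overlap between the groups. The log2 change of Apoe was 0.95 (SE 0.16; adjusted p = 0.575 in limma), and the authors' deposited table marked it as significant, with a q-value of 0.00331. Apoe is also expressed by neural progenitors and other cells, so its RNA is not specific to microglia. Clu, a lipid carrier that also binds TREM2, was 14.2 ± 3.16 FPKM in the cKO and 18.1 ± 3.18 FPKM in the controls.

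Of 9 genes of the fractalkine and nucleotide axis, 6 were tested and none was called by limma. The cKO libraries were both above every control at 4 of the 9 and both below at 1 (Gnai2), beside 12.9% and 13% of loci above 0. The median log2 change over all 9 without a minimum level was 0.18. Cx3cl1, the gene of the CX3CR1 ligand fractalkine, was 8.77, 4.48 and 7.43 FPKM in the controls and 8.81 and 6.74 FPKM in the cKO, so the groups overlapped. P2ry6, a receptor for UDP linked to phagocytosis, was 0.212, 1.10 and 0.569 FPKM in the controls and 1.78 and 1.59 FPKM in the cKO. Entpd1, the enzyme CD39 that breaks down ATP and ADP, was 3.71 ± 0.327 FPKM (SD, n = 2) and 2.51 ± 0.352 FPKM (SD, n = 3). Neither gene overlapped between the groups, and P2ry6 was above the minimum level through the cKO libraries. Gnai2, a G protein subunit gene through which several of these receptors signal, was 177, 214 and 205 FPKM in the controls and 168 and 165 FPKM in the cKO, both below every control.

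Of 18 other transcription factor genes of the macrophage lineage, 15 were tested and none was called by limma. Both cKO libraries were above every control at 8 of the 18 and below at none, beside 12.9% and 13% of loci above 0. The median log2 change over all 18 without a minimum level was 0.13. In the authors' deposited table Maf and Mef2c were marked as significant and higher and Tal1 as significant and lower, each with a q-value of 0.00331. Tal1, a gene of blood cell precursors, was 20.4, 0.420 and 0.573 FPKM in controls 1 to 3 and 0.409 and 0.474 FPKM in cKO 1 and 2, so control 1 alone was high. Maf, which encodes the macrophage factor c-MAF, was 12.7 ± 2.22 FPKM (SD, n = 2) in the cKO and 6.39 ± 1.85 FPKM (SD, n = 3) in the controls, and Ikzf1, the gene of the hematopoietic factor IKAROS, was 1.83 ± 0.0329 FPKM and 1.13 ± 0.342 FPKM. Maf and Mef2c are also expressed by cortical neurons, so their RNA does not trace microglia alone. Sall1, a gene of microglial identity that neural progenitors share, was 21.2 FPKM in the cKO and 26.5 FPKM in the controls as means, with overlap.

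A list of 30 other genes enriched in microglia was read beside the 9. Of 20 tested, none was called by limma, and Gpr34 and Ltc4s were above the minimum level through the cKO libraries. The median log2 change over all 30 without a minimum level was 0.41. Both cKO libraries were above every control at 19 of the 30 and below at none, beside 12.9% and 13% of all loci above 0. Fcrls, an Fc receptor-like gene of microglia, was 7.83 ± 0.0980 FPKM (SD, n = 2) in the cKO and 3.06 ± 0.433 FPKM (SD, n = 3) in the controls. Laptm5, a lysosomal membrane protein gene of hematopoietic cells, was 8.86 ± 0.0960 FPKM and 3.89 ± 0.266 FPKM. The authors' deposited table marked 6 of the 30 as significant and higher: Fcrls (q-value 0.00811), Laptm5 (0.0202), Lyz2 (0.00331), Fcer1g (0.00590), Fcgr3 (0.0252) and Cd53 (0.00331). It marked 1.21% of its 13511 evaluated loci in that direction. Siglech, Selplg, Itgam, Ptprc, Cybb, Csf3r and Gpr84 of the 30 were not evaluated there. The tested genes with a negative log2 change were Sall1, Olfml3, Cyba and Coro1a, named after their values were seen, and each overlapped between the groups.

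Markers of other cells were read beside the 9 genes. Of 10 markers of border macrophages, the macrophages of vessels and meninges, 8 were under 1 FPKM in every library. Their summed level was 2.18, 5.12 and 2.01 FPKM in controls 1 to 3 and 7.25 and 5.86 FPKM in cKO 1 and 2, so control 2, the library with the most meningeal RNA, was the highest control. The ratio of means was 2.11, against 2.10 for the 9 microglial genes. Without control 2, an alternative chosen after seeing the data, the ratios were 3.13 and 2.26. Both cKO libraries were above every control at 4 of the 10 and below at none, beside 12.9% and 13% of loci above 0. Cd163 is in that count at 0.0117 and 0.0141 FPKM in cKO 1 and 2. The largest part of the sum was Stab1, at 1.30, 2.28 and 1.17 FPKM in controls 1 to 3 and 3.49 and 2.73 FPKM in cKO 1 and 2. Pf4 was 0.922 ± 0.560 FPKM (SD, n = 3) in the controls and 1.33 ± 0.0228 FPKM (SD, n = 2) in the cKO, with overlap. Lyve1, Cd209f and Clec10a had lower means in the cKO. Ms4a7, a membrane protein gene of these macrophages, was listed at 0 in all 3 controls and at 0.951 and 0.985 FPKM in cKO 1 and 2. Mrc1, which encodes the mannose receptor, was 0.187, 0.376 and 0.180 FPKM in the controls and 0.832 and 0.610 FPKM in the cKO. In the fit without a minimum level, Ms4a7 was the single gene of this list that was called (adjusted p = 0.0223 in limma, a fit in which its controls show no spread). Ms4a7, Mrc1, Cd163, Lyve1, Cd209f and Clec10a are named after their values were seen. The part of border macrophages in the values of the 9 genes was not tested.

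Markers of blood cells and vessels were read in the same way. Of 12 monocyte and granulocyte markers, Ly6c2, S100a8, Elane and Chil3 were listed at 0 in every library. All 12 summed to between 37.7 and 41.6 FPKM in the controls and between 56.1 and 56.3 FPKM in the cKO. Most of this sum was Vcan, a matrix proteoglycan gene that neural tissue also expresses. Vcan was 34.9, 31.3 and 34.3 FPKM in the controls and 50.5 and 51.9 FPKM in the cKO, and the authors' deposited table marked it as significant (q-value 0.0450). Prtn3 was 5.96 ± 1.07 FPKM (SD, n = 3) in the controls and 4.85 ± 0.967 FPKM (SD, n = 2) in the cKO, with overlap. Apart from these 2 genes, which were set aside after their values were seen, the 10 remaining markers summed to between 0.250 and 0.406 FPKM in the controls and between 0.0351 and 0.354 FPKM in the cKO. Ccr2, the chemokine receptor of monocytes, was at most 0.0379 FPKM. The 11 lymphoid and mast cell markers were all under 1 FPKM, 6 of them at 0 in every library. They summed to between 0.230 and 0.341 FPKM in the controls and between 0.469 and 0.516 FPKM in the cKO, a ratio of 1.63. Both cKO libraries were above every control at 3 of the 11 and below at none, beside 12.9% and 13% of loci above 0. The 3 were Cd79b, Cpa3 and Cma1, named after their values were seen, at no more than 0.277, 0.0812 and 0.0778 FPKM. Cd79a and Il7r had lower means in the cKO than in the controls. The part of all these blood cells in the values of the 9 genes was not tested. Erythroid loci summed to 1525 to 1709 FPKM in the controls and 1609 to 1758 FPKM in the cKO. Endothelial and pericyte markers summed to 91.03 to 105 FPKM and 107 to 115 FPKM, a ratio of 1.13, against 2.10 for the 9 microglial genes. The same ratio was 1.42 for the 30 other microglial genes and 1.64 for the markers of the ventral telencephalon. Coro1a, Sall1 and Tgfbr1, named after their values were seen, made up much of the sum of the 30. Their means were 39.4, 26.5 and 20.1 FPKM in the controls. In the cKO they were 36.1, 21.2 and 23.0 FPKM, each with overlap. The 1.42 therefore does not describe most of the 30 genes. Both cKO libraries were above every control at 3 of the 12 endothelial and pericyte markers and below at none, beside 12.9% and 13% of loci above 0. The 3 were Rgs5, Abcc9 and Kcnj8. The pericyte gene Rgs5 was 23.4 ± 5.71 FPKM (SD, n = 2) in the cKO and 13.5 ± 2.24 FPKM (SD, n = 3) in the controls. The authors' deposited table marked Rgs5 as significant (q-value 0.0241). As means, Abcc9 was 3.61 FPKM in the cKO and 2.59 FPKM in the controls, and Kcnj8 was 3.79 and 3.32 FPKM. Pdgfrb, of the same list, was 4.99 ± 0.564 FPKM (SD, n = 2) in the cKO and 5.38 ± 1.09 FPKM (SD, n = 3) in the controls, with overlap.

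**Figure D4:**
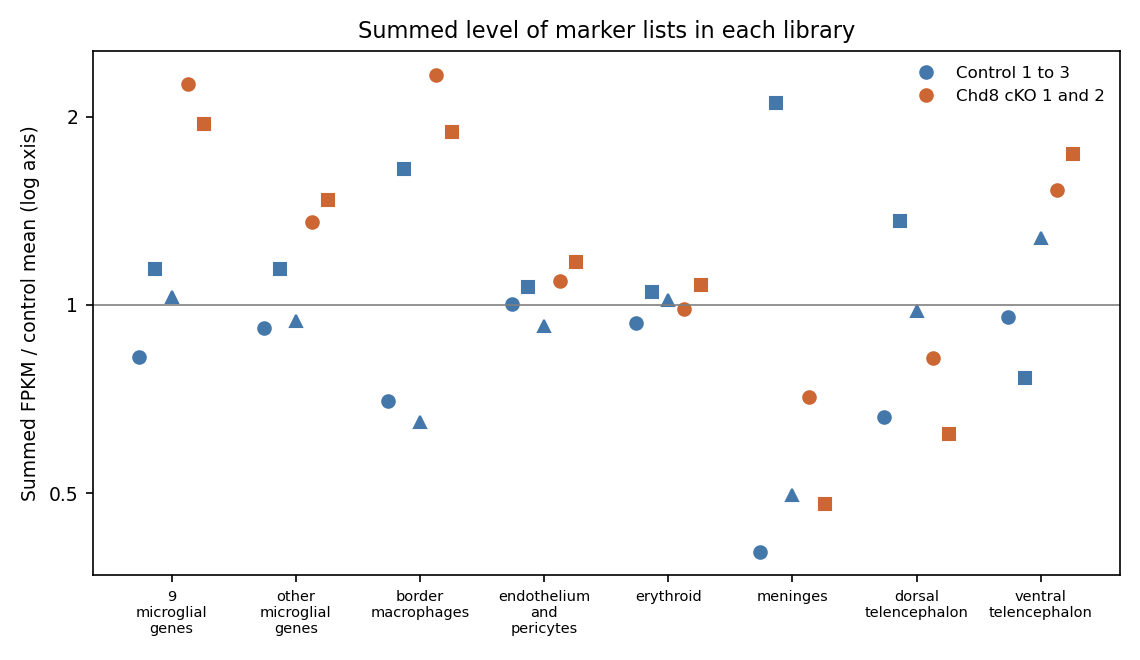
Summed FPKM of each marker list divided by its control mean, on a log axis, with controls in blue and cKO in orange; circles, squares and triangles are replicates 1, 2 and 3. The 9 microglial genes and the border macrophage markers have the highest cKO ratios, with means of 2.10 and 2.11, and control 2 stands apart for the meningeal markers, at 28.9 FPKM against 5.55 and 6.82 FPKM in the other controls.

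The tested loci whose centred log2 profile lay closest to the mean profile of the 7 tested genes were looked up by their root mean square difference over the 5 libraries. The closest 10 of 12665 other loci had differences of 0.055 to 0.12 log2 units, where the median locus had 0.43. They were 1700003M07Rik, Sv2b, Ctsd, Arhgdib, Ddit4l, Sesn2, the joined locus of Fam65a and Mir1966, Ctsc, Gm7120 and Chrm1. None of the 10 was on a list used here. Ctsd, the gene of the lysosomal protease cathepsin D, was 79.8, 91.4 and 82.01 FPKM in controls 1 to 3 and 142 and 131 FPKM in cKO 1 and 2. Ctsc, the gene of cathepsin C, was 0.932, 1.40 and 1.17 FPKM in the controls and 2.76 and 2.69 FPKM in the cKO. Arhgdib, a signalling gene of hematopoietic cells, was 3.79, 4.52 and 4.98 FPKM and 9.45 and 8.18 FPKM. In the same order Sv2b, closer than these, was 2.93, 3.34 and 3.29 FPKM and 6.86 and 5.70 FPKM. Sesn2 was 2.96, 3.01 and 3.02 FPKM and 6.54 and 5.77 FPKM. Chrm1 was 0.501, 1.02 and 1.02 FPKM and 1.89 and 1.45 FPKM. Ctsd, Ctsc and Arhgdib were picked from the 10 for description, and the 10 were not assigned to a cell type. Among the 7 genes themselves the profile of Spi1 was nearest to their mean (0.12) and those of Cx3cr1 (0.499) and Tyrobp (0.498) farthest. With 5 libraries, many loci can share a profile, and the likeness carries no test.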

How the data were processed

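RNA-seq values of 5 libraries (3 controls and 2 Chd8 cKO, grouped by title and genotype labels) were analysed. The submitters' processing notes name CASAVA, TopHat, Cufflinks, Bowtie2 and MACS and the build mm10, with no versions or roles. The deposited values were taken as FPKM because Cufflinks is named and the columns have its layout. The sources used here give neither annotation nor strand setting. The authors' log2 fold change, test statistic score, p-value and q-value per locus were deposited in the same table, per the file headers.

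Depth is unknown: low values gave no shared step between libraries (at most 25.0% of low loci in the commonest ratio bin of 0.1 log2 units), so no count test was run.

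Values of loci averaging 1 FPKM or more were fitted as log2(FPKM + 1) with limma 3.58.1 in R 4.3.3, using an intensity trend and Benjamini-Hochberg adjustment over all 12672 tested loci, with 3 residual degrees of freedom. The procedure was run on simulated data to check that planted changes came back at about their size. That check does not measure how often a real difference of these libraries would be called. Exact permutation tests used the 10 ways of assigning 2 of 5 libraries, so none can go below p = 0.1. Named genes were the 9 genes, the 10 most alike loci and up to 4 genes per list with the smallest unadjusted p, of which some are described. Every other gene named with a value, such as Cx3cl1, Il34, Sall1, Dok2, Tal1, Mrc1, Ms4a7, Ccr2, Cd53, Syk and Cd33, was chosen after its values were seen. The 9 genes, the lists and the tests were chosen with earlier results of these data known. Gene positions and promoters came from RefSeq (GRCm38.p6). All 5 columns of library values were used. One marker of the dorsal telencephalon is not reported here and was left out of its list.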

Additional observations from a re-analysis of the deposited data

How the results depend on the processing

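No tested gene among the 9 or the 30 other microglial genes was called by limma under the 14 alternatives (pseudocount, minimum level, scaling, trend, replicate block and each library left out). These tested 7 and 20 genes, except 9 and 30 without a minimum level and 1 and 12 with a mean of at least 5 FPKM. The median log2 change of the tested genes among the 9, which include Aif1, was 0.65, and 0.86 with a pseudocount of 0.1 FPKM and 1.48 with a mean of at least 5 FPKM, where Tyrobp alone was tested and the count of genes with both cKO libraries above every control was 1. Leaving out 1 library at a time gave medians of 0.57 to 0.85. With control replicate 1, 2 or 3 left out that count was 6, beside 27.7%, 18.1% and 15.0% of all tested loci. With all 5 libraries the share was 13.4%, and 13.5% with a mean of at least 5 FPKM. Since the share moves with the libraries used and Aif1 is among the tested genes, nothing is read from these counts. For the 20 tested other microglial genes, which include Gpr34 and Ltc4s, the median was 0.84, and 0.99 with a pseudocount of 0.1 FPKM and 0.41 without a minimum level, and 0.71 to 0.90 with 1 library left out. The log2 change of Cx3cr1 was -0.040 with a pseudocount of 0.1 FPKM and ranged from -0.72 to 0.85 with 1 library left out; the cause was not tested. Over the alternatives, adjusted p was 0.324 to 1 for Csf1r and Tyrobp and 0.324 to 0.970 for Trem2. Replicate numbers do not say that libraries are paired. Same-numbered libraries deviated from their group means with correlations of -0.067 and -0.11. The 2 cKO libraries deviate from their mean by equal and opposite amounts. These correlations are therefore not separate checks and say little about pairing. With the number as a replicate block, the median of the tested genes among the 9 was 0.57, and no tested gene of either list was called. Control replicate 3 adds nothing to that fit because it has no partner. The whole table had 6 calls, and 3 with the block, 13 without control replicate 1 or 2, 27 without cKO replicate 1 and 35 without cKO replicate 2, where the lone library is assumed to vary like the controls. Rescaling moved the median of all tested loci by less than 0.1 log2 units. FPKM without counts leaves the precision of genes near 1 FPKM unknown.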

Other observations

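Of the 30 other microglial genes, 10 had a mean under 1 FPKM and were not tested, and both cKO libraries were above every control at 6 of these, beside 12.9% of loci above 0. Cd53, a tetraspanin gene of leukocytes, was 0.465, 0.170 and 0.140 FPKM in controls 1 to 3 and 0.896 and 1.90 FPKM in cKO 1 and 2, and the authors' deposited table marked it as significant (q-value 0.00331). Ptprc, which encodes the leukocyte antigen CD45, was 0.147, 0.0837 and 0.123 FPKM in the controls and 0.253 and 0.277 FPKM in the cKO. Cybb, the catalytic subunit gene of the phagocyte NADPH oxidase, was 0.0691, 0.0386 and 0.0488 FPKM in the controls and 0.293 and 0.262 FPKM in the cKO. Siglech and Selplg, genes of homeostatic microglia, overlapped between the groups, as did Itgam, the gene of the integrin CD11b. Itgam was 0.400, 0.338 and 0.310 FPKM in the controls and 0.356 and 0.260 FPKM in the cKO. These genes are named after their values were seen, and at such levels a few fragments can move a value.

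Syk, the kinase recruited by phosphorylated TYROBP, was 0.817, 0.541 and 0.658 FPKM in controls 1 to 3 and 0.956 and 1.16 FPKM in cKO 1 and 2. Cd33, an inhibitory receptor gene of myeloid cells, was 0.231, 0.346 and 0.298 FPKM in the controls and 0.713 and 0.768 FPKM in the cKO. Both were under the minimum level for the test, both had cKO values above every control, and both are named after their values were seen.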
